A study of Mus musculus with 2 samples.

Results

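The 10 genes described here encode the laminin chains, nidogens and perlecan that were measured in the cells of the normal mouse thoracic aorta: the laminin α chains Lama2, Lama4 and Lama5, the β chains Lamb1 and Lamb2, the γ chains Lamc1 and Lamc3, the nidogens Nid1 and Nid2, and perlecan (Hspg2). They were taken by symbol from the 32287 features counted, and each symbol matched 1 feature. The cells came from 2 thoracic aortas of C57BL/6J mice of the GFPiSMC genotype, which serves as wild type here (1 group, n = 2 aortas). In these mice a Cre recombinase that tamoxifen activates and that the Myh11 promoter drives switches a membrane reporter in smooth muscle cells (SMCs) from tdTomato to GFP. Both animals received tamoxifen at 1 mg per day for 5 days from 3 weeks of age, and their aortas were taken at 12 weeks of age. Live singlets were sorted irrespective of GFP and captured as 1 droplet library per aorta, so that cell types, and not treatments, are compared.

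A basement membrane is a thin sheet of extracellular matrix (ECM) that surrounds each medial SMC and underlies the endothelium and the mesothelium. Its laminins are trimers of an α, a β and a γ chain, and they are named by the chain numbers in that order. The γ1 chain carries the site that nidogen binds, nidogen links the laminin sheet to the collagen IV network, and perlecan is a large heparan sulfate proteoglycan that binds both. The α chain holds the domains that integrins and dystroglycan recognise on the cell surface. In blood vessels the α4 and α5 chains are the endothelial laminins in most descriptions, and the α2 chain is best known from muscle and nerve.

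The genes lie apart in the genome (GRCm38, GENCODE annotation). On chromosome 10, Lama2 spans 26980036 to 27619758 on the minus strand and Lama4 spans 38965515 to 39110188 on the plus strand. On chromosome 2, Lama5 spans 180176373 to 180225859 on the minus strand and Lamc3 spans 31887291 to 31946539 on the plus strand. Lamb1 lies on chromosome 12 (31265234 to 31329644, plus strand) and Lamb2 on chromosome 9 (108479736 to 108490530, plus strand). Lamc1 lies on chromosome 1 (153218922 to 153332786, minus strand). The nidogen genes are on chromosome 13 (Nid1, 13437551 to 13512269) and chromosome 14 (Nid2, 19751265 to 19811787), and Hspg2 is on chromosome 4 (137468769 to 137570630), all on the plus strand. Genes on the opposite strand overlap Lama2, Lamc3, Nid1 and Nid2. Whether the counting used the strand is not given in the sources used here, so a share of the reads of these 4 genes could belong to the overlapping gene.

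Promoter sequences are shown for 2 pairs of chains of the same class that differed in their distribution over cell types, Lama2 with Lama5 and Lamb1 with Lamb2. They run from 250 bases before to 50 bases after the RefSeq transcription start (GRCm38.p6, 5′ to 3′ on the strand of the gene), and capitals mark every GC box (GGGCGG, searched on both strands). RefSeq entries were matched for 6 of the 10 genes, and the RefSeq starts of Lama2, Lamb1 and Lamb2 lie inside the spans that GENCODE gives to these genes.
Lama2 (chr10:27616893-27617192, minus strand): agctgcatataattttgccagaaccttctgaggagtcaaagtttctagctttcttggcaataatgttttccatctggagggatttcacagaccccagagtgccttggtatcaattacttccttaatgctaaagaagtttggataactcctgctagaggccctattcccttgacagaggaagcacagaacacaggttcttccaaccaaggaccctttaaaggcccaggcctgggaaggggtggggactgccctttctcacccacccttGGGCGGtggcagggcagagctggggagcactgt
Lama5 (chr2:180225810-180226109, minus strand): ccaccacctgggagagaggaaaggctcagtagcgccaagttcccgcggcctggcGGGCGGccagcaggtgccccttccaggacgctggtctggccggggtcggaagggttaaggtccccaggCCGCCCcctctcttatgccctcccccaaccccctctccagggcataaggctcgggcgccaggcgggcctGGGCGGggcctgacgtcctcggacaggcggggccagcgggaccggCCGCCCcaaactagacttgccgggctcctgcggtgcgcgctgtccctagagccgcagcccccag
Lamb1 (chr12:31265043-31265342, plus strand): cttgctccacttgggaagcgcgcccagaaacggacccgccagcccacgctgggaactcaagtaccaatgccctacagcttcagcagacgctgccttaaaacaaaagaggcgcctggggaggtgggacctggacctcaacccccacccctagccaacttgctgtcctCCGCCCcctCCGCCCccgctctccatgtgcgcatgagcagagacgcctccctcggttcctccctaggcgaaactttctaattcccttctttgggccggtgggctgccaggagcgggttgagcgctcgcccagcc
Lamb2 (chr9:108479612-108479911, plus strand): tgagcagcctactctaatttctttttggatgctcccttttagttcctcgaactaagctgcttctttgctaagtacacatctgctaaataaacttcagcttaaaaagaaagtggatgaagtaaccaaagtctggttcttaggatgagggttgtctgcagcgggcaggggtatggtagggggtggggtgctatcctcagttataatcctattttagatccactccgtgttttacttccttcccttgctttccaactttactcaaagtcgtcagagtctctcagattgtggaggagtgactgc
The windows of Lama5 and Lamb1 held 4 and 2 GC boxes and 24 and 18 CpG dinucleotides. Those of Lama2 and Lamb2 held 1 and 0 GC boxes and 1 and 4 CpG dinucleotides. Of all 32851 RefSeq promoter windows of this length, 35.7% held a GC box, and the median held 7 CpG dinucleotides. None of the 4 windows held TATAAA on either strand, which 13.6% of all windows did. Matches of letters are a description of these windows and not of binding.

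The deposited libraries held 8947 and 6263 cells, of which 6533 and 4601 passed the filters, with a median of 5668 and 5389 UMIs per cell, where a UMI (unique molecular identifier) marks 1 captured RNA molecule. Clustering without the 10 genes gave 30 clusters. Markers named 29 of them as 8 cell types, and every name below means cells that resemble that type by markers. SMCs made up 36.0% and 36.7% of cells, fibroblasts 23.1% and 23.0%, endothelial cells 11.3% and 14.1%, mesothelial cells 4.21% and 3.39%, and lymphatic endothelial cells 0.719% and 1.65%. Myeloid cells, lymphocytes and a few erythroid cells made up the rest, apart from 13 unnamed cells of aorta 1. The sets of analysed barcodes shared 10 barcodes. A level below is the number of UMIs of the gene per 1000000 UMIs of the cells of that type in 1 aorta (CPM). Because a UMI counts a molecule once whatever its length, levels of different genes are not divided by gene length.

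The α chains were spread unevenly over the cell types. Lama2, the α2 chain, stood at 535 CPM in fibroblasts of aorta 1 and 520 in aorta 2 (528 ± 10.7, SD, n = 2). In SMCs it stood at 63.7 and 63.1 CPM. All other types except the erythroid cells of aorta 1, which held 6 UMIs, lay at or under 18.0 CPM, and fibroblasts and SMCs did not overlap. Fibroblasts therefore contributed 80.8% and 81.0% of all Lama2 UMIs in named cells. The fold change of SMCs against fibroblasts was -2.91 on the log2 scale (SE 0.138, adjusted p = 1.32e-15), and that of SMCs against endothelial cells was 4.11 (SE 0.280, adjusted p = 1.94e-12). These and the other p-values are from edgeR's quasi-likelihood test with Benjamini-Hochberg adjustment over 13974 genes, and a call required a log2 fold change beyond 1 in either direction with an adjusted p below 0.05. They measure the spread between 2 animals, and the fold changes include the TMM scaling described below, so they can differ from a ratio of CPM. Over the alternatives described at the end, Lama2 ran from -3.62 to -2.88 in SMCs against fibroblasts and from 2.88 to 4.72 in SMCs against endothelial cells.

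Lama4, the α4 chain, was detected in every vascular and mesothelial type. Its level was highest in lymphatic endothelial cells, at 546 and 540 CPM, although these were only 47 and 76 cells with 91 and 137 Lama4 UMIs. Fibroblasts followed with 153 and 211 CPM, then SMCs with 91.7 and 97.8, mesothelial cells with 83.8 and 104, and endothelial cells with 44.9 and 39.0. The ranges of SMCs and mesothelial cells overlapped, with a fold change of -0.27 (SE 0.167, adjusted p = 0.202), whereas the aortas ranked the other neighbours alike. SMCs exceeded endothelial cells (log2 fold change 1.35, SE 0.167, adjusted p = 1.76e-07). Against fibroblasts the SMC fold change of -0.79 (SE 0.129) missed the size limit.

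Lama5, the α5 chain, was low in fibroblasts, where Lama2 was highest, and higher in endothelial and mesothelial cells, where Lama2 was low. SMCs held both chains. Lama5 stood at 51.7 and 49.6 CPM in SMCs, at 53.1 and 48.4 in endothelial cells and at 88.2 and 67.3 in mesothelial cells, against 3.80 and 3.70 in fibroblasts. In lymphatic endothelial cells it stood at 12.0 and 11.8 CPM, on 2 and 3 UMIs. The fibroblast level was close to that of lymphocytes, which served as the background because they are not known to lay down a basement membrane (2.02 and 2.27 CPM). Against fibroblasts, Lama5 was higher in SMCs by 3.89 on the log2 scale (SE 0.161, adjusted p = 8.53e-17) and in mesothelial cells by 4.32 (SE 0.190, adjusted p = 5.79e-16). SMCs and endothelial cells overlapped (fold change 0.18, SE 0.126, adjusted p = 0.236), and the sign of that difference turned with the scaling.

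**Figure D1:**
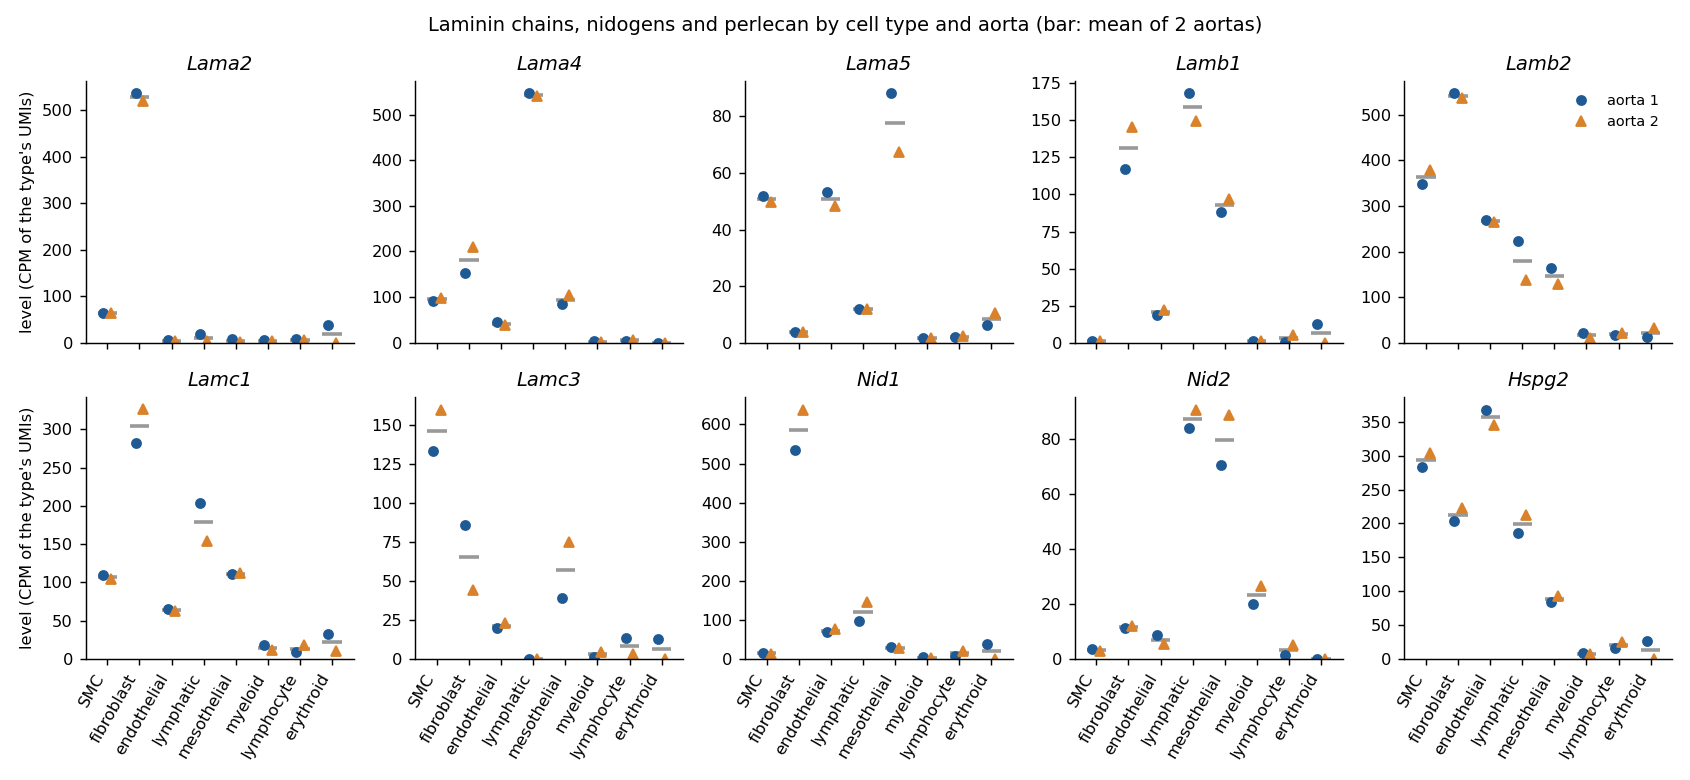
Level of each of the 10 genes (y axis, CPM, linear scale from 0, a scale for each panel) in 8 cell types, with a circle for aorta 1, a triangle for aorta 2 and a grey bar at their mean. Lama2 and Nid1 peak in fibroblasts, Lamc3 in SMCs (through 1 cluster, without which SMCs stood at 30.8 and 41.2 CPM), Hspg2 in endothelial cells, Lama5 in mesothelial cells, and Lama4, Lamb1 and Nid2 in lymphatic endothelial cells.

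Of the β chains, Lamb1 separated SMCs from the other matrix-producing types, whereas the Lamb2 level of SMCs lay between those of fibroblasts and endothelial cells. Lamb2, the β2 chain, stood at 349 and 380 CPM in SMCs, 547 and 537 in fibroblasts, 270.2 and 265 in endothelial cells and 165 and 129 in mesothelial cells. Lamb1, the β1 chain, stood at 1.38 and 0.914 CPM in SMCs, on 24 and 11 UMIs. Lymphocytes showed 0.672 and 5.11 CPM, lower than SMCs in aorta 1 and higher in aorta 2, so the ranges overlapped. In fibroblasts Lamb1 stood at 117 and 146 CPM, in lymphatic endothelial cells at 168 and 150, in mesothelial cells at 88.2 and 96.9, and in endothelial cells at 18.8 and 22.2. All 4 of these types lay above the SMCs in both aortas.

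The log2 fold change of Lamb1 in SMCs against fibroblasts was -6.61 (SE 0.211, adjusted p = 6.01e-19), and against endothelial cells it was -3.87 (SE 0.315, adjusted p = 6.96e-11). Mesothelial cells exceeded SMCs by 6.01 (SE 0.255, adjusted p = 1.79e-16). Over the alternatives described at the end, these Lamb1 values ran from -7.41 to -6.00, from -4.69 to -3.20 and from 5.21 to 6.84. For Lamb2 the differences among SMCs, fibroblasts and endothelial cells were small: -0.43 (SE 0.138) for SMCs against fibroblasts and 0.63 (SE 0.145) for SMCs against endothelial cells were not called, and fibroblasts against endothelial cells passed narrowly at 1.07 (SE 0.146, adjusted p = 9.55e-07). With each cell thinned to 1000 UMIs, 27.7% and 30.9% of SMCs held a Lamb2 UMI and 0.341% and 0.118% held a Lamb1 UMI. The corresponding shares of lymphocytes were 1.29% and 1.67% for Lamb2, and 0.161% and 0.279% for Lamb1. Without thinning, the SMC shares were 77.3% and 79.2% for Lamb2 and 0.894% and 0.592% for Lamb1, and those of lymphocytes were 3.54% and 4.74% for Lamb2 and 0.322% and 0.557% for Lamb1, at median depths of 7603 and 7428 UMIs per SMC and 4085 and 3872 per lymphocyte.

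Among the γ chains, Lamc1 was shared and Lamc3 was unevenly spread. Lamc1, the γ1 chain that most known laminins contain, stood at 109 and 105 CPM in SMCs, 283 and 326 in fibroblasts, 65.3 and 62.1 in endothelial cells, 204 and 154 in lymphatic endothelial cells and 111 and 112 in mesothelial cells. Its level in SMCs was lower than in fibroblasts by -1.36 (SE 0.121, adjusted p = 3.75e-10), and SMCs and mesothelial cells differed by little (-0.17 for mesothelial cells against SMCs, SE 0.150, adjusted p = 0.392). Lamc3, the γ3 chain, was higher in SMCs (133 and 160 CPM) than in endothelial cells (19.8 and 22.6), where the fold change on the log2 scale was 2.98 (SE 0.288, adjusted p = 2.80e-09). Most of this SMC level came from 1 cluster led by Rgs5, a gene of the pericyte list, and without it SMCs stood at 30.8 and 41.2 CPM of Lamc3 and the fold change was 1.01 (SE 0.328, adjusted p = 0.0117).

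Fibroblasts held 85.8 and 44.3 CPM of Lamc3, a wide spread between the aortas. The Lamc3 difference between SMCs and fibroblasts was called at 1.28 (SE 0.209, adjusted p = 1.07e-05), but with scaling by relative log expression (RLE) it fell under the size limit at 0.95, and DESeq2 gave 0.97 (SE 0.761) with an adjusted p = 0.279. In edgeR without aorta 1 or aorta 2, the Lamc3 value was 1.97 or 0.80, with no test. No Lamc3 UMI was found in lymphatic endothelial cells of either aorta, which allows a level of up to 18.0 and 11.8 CPM at the limit of 3 counts. Intervals and limits of this kind cover counting error only.

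The nidogen transcripts were low in SMCs. Nid1, nidogen-1, stood at 534 and 638 CPM in fibroblasts, at 68.0 and 75.4 in endothelial cells, at 96.1 and 146 in lymphatic endothelial cells and at 30.3 and 26.5 in mesothelial cells. In SMCs it stood at 15 and 13.3 CPM, inside the range of lymphocytes (7.06 and 19.9). Fibroblasts thus contributed 89.6% and 90.5% of Nid1 UMIs in named cells. The SMC level was lower than that of fibroblasts by -5.22 (SE 0.188, adjusted p = 6.22e-18) and than that of endothelial cells by -2.13 (SE 0.209, adjusted p = 2.43e-09).

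Nid2, nidogen-2, was a low-level transcript with a different distribution. Lymphatic endothelial cells (84.1 and 90.6 CPM) and mesothelial cells (70.5 and 88.8) led, and their ranges overlapped. Myeloid cells followed at 19.9 and 26.6 CPM, fibroblasts at 11.3 and 12.0, endothelial cells at 8.58 and 5.32 and SMCs at 3.46 and 2.91. Mesothelial cells exceeded fibroblasts by 2.66 (SE 0.207, adjusted p = 1.02e-10) and SMCs by 4.36 (SE 0.227, adjusted p = 2.54e-14). Per UMI of Lamc1, whose protein nidogen binds, fibroblasts held 1.89 and 1.96 Nid1 UMIs, endothelial cells 1.04 and 1.21, lymphatic endothelial cells 0.471 and 0.949, mesothelial cells 0.274 and 0.236 and SMCs 0.138 and 0.127. Such ratios are of captured RNA and not of protein. In SMCs, Nid1 was not called above lymphocytes (0.25, adjusted p = 0.503) and lay at 0.0281 and 0.0208 of its fibroblast level, below the median ratio of the fibroblast markers (0.0327 and 0.0260). In mesothelial and endothelial cells Nid1 lay above the median ratio but under the highest one. With both nidogens counted per UMI of Lamc1 and Lamc3, mesothelial cells held 0.673 and 0.617, fibroblasts 1.48 and 1.75, endothelial cells 0.899 and 0.953, lymphatic endothelial cells 0.882 and 1.54 and SMCs 0.0763 and 0.0613.

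Perlecan was the member with the smallest differences among the 3 main vascular types. Hspg2 stood at 368 and 345 CPM in endothelial cells, 284 and 304 in SMCs and 203 and 223 in fibroblasts, and the aortas did not overlap between types. None of the 3 pairwise differences passed the size limit. They were 0.61 (SE 0.113) for SMCs against fibroblasts, -0.70 (SE 0.117) for fibroblasts against endothelial cells and -0.09 (SE 0.115) for SMCs against endothelial cells, the last with an adjusted p = 0.554. Mesothelial cells held less, 84.3 and 92.9 CPM, and were lower than endothelial cells by -2.06 (SE 0.146, adjusted p = 8.51e-12) and than SMCs by -1.97 (SE 0.142, adjusted p = 8.61e-12). Per Lamc1 UMI, endothelial cells held 5.64 and 5.55 Hspg2 UMIs, SMCs 2.61 and 2.91, mesothelial cells 0.761 and 0.827 and fibroblasts 0.718 and 0.684.

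All 10 genes passed the filter on low counts in every comparison. Of them, 7 were called between SMCs and fibroblasts: Lama5 and Lamc3 were higher in SMCs, and Lama2, Lamb1, Lamc1, Nid1 and Nid2 were higher in fibroblasts. Without SMC cluster 3, which is described below and has Rgs5 as its leading gene and no SMC marker among its 10 leading genes (nor had clusters 1 and 13), Lamc3 in SMCs stood at 30.8 and 41.2 CPM, the fold change was -0.68 (SE 0.237, adjusted p = 0.0184), and Lamc3 was not called. The fibroblast value also rests on 1 cluster: without fibroblast cluster 5, fibroblasts stood at 13.3 and 9.44 CPM, below SMCs without cluster 3. Of the 12509 tested genes outside the marker lists and the clustering features, 23.3% were called in this comparison, 11.0% higher in SMCs and 12.4% higher in fibroblasts. This background, used in every comparison, leaves out the most variable genes, whereas the 10 genes were barred from the clustering and so from that removal. Its shares are therefore not shares of all genes tested. The median log2 fold change of the 10 genes was -1.08, against 0 for all genes tested. The scaling bears on these values: RLE in place of the trimmed mean of M-values (TMM) moved the fold changes of all genes by a median of -0.34 in this comparison, and of the background genes called, 29.9% were then higher in SMCs, against 47.0% under TMM. Again 7 of the 10 genes were called under RLE, with Lama4 (-1.13, higher in fibroblasts) in place of Lamc3.

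In SMCs against endothelial cells, 5 of the 10 were called, with Lama2, Lama4 and Lamc3 higher in SMCs and Lamb1 and Nid1 higher in endothelial cells (background 27.1% in either direction, 14.6% higher in SMCs and 12.5% higher in endothelial cells). In fibroblasts against endothelial cells, 8 were called, 7 of them higher in fibroblasts (background 22.7%, and 13.2% higher in fibroblasts), and 1, Lama5, was higher in endothelial cells (-3.70, SE 0.184, adjusted p = 4.17e-15, background 9.55%). Mesothelial cells differed from fibroblasts in 8 genes (background 21.3%, with 9.98% higher in mesothelial cells and 11.3% higher in fibroblasts), of which Lama5 and Nid2 were higher in mesothelial cells. They differed from SMCs in 6 (background 27.0%, with 13.7% higher in mesothelial cells and 13.3% higher in SMCs), with Lamb1 and Nid2 higher in mesothelial cells, and from endothelial cells in 6 (background 23.0%, with 12.6% higher in mesothelial cells and 10.3% higher in endothelial cells), with Lama4, Lamb1, Lamc3 and Nid2 higher in mesothelial cells. Of these, Lama4 (0.92) and Lamc3 (0.94) were not called with doublets kept, nor was Lamc3 by DESeq2 (1.45). Lamc3, lower in mesothelial cells than in SMCs (-1.69), was not called by DESeq2 (-1.34) or without SMC cluster 3 (0.28). These comparisons share cell types and are not independent of each other. RLE moved the medians of all genes by -0.19 for SMCs against endothelial cells, 0.15 for fibroblasts against endothelial cells and 0.26 for mesothelial cells against SMCs, and by less than 0.1 in mesothelial cells against fibroblasts and against endothelial cells. For SMCs against endothelial cells the share of background calls higher in SMCs went from 53.9% to 45.0%. For mesothelial cells against SMCs the share of background calls higher in mesothelial cells rose from 50.8% to 62.3%.

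**Figure D2:**
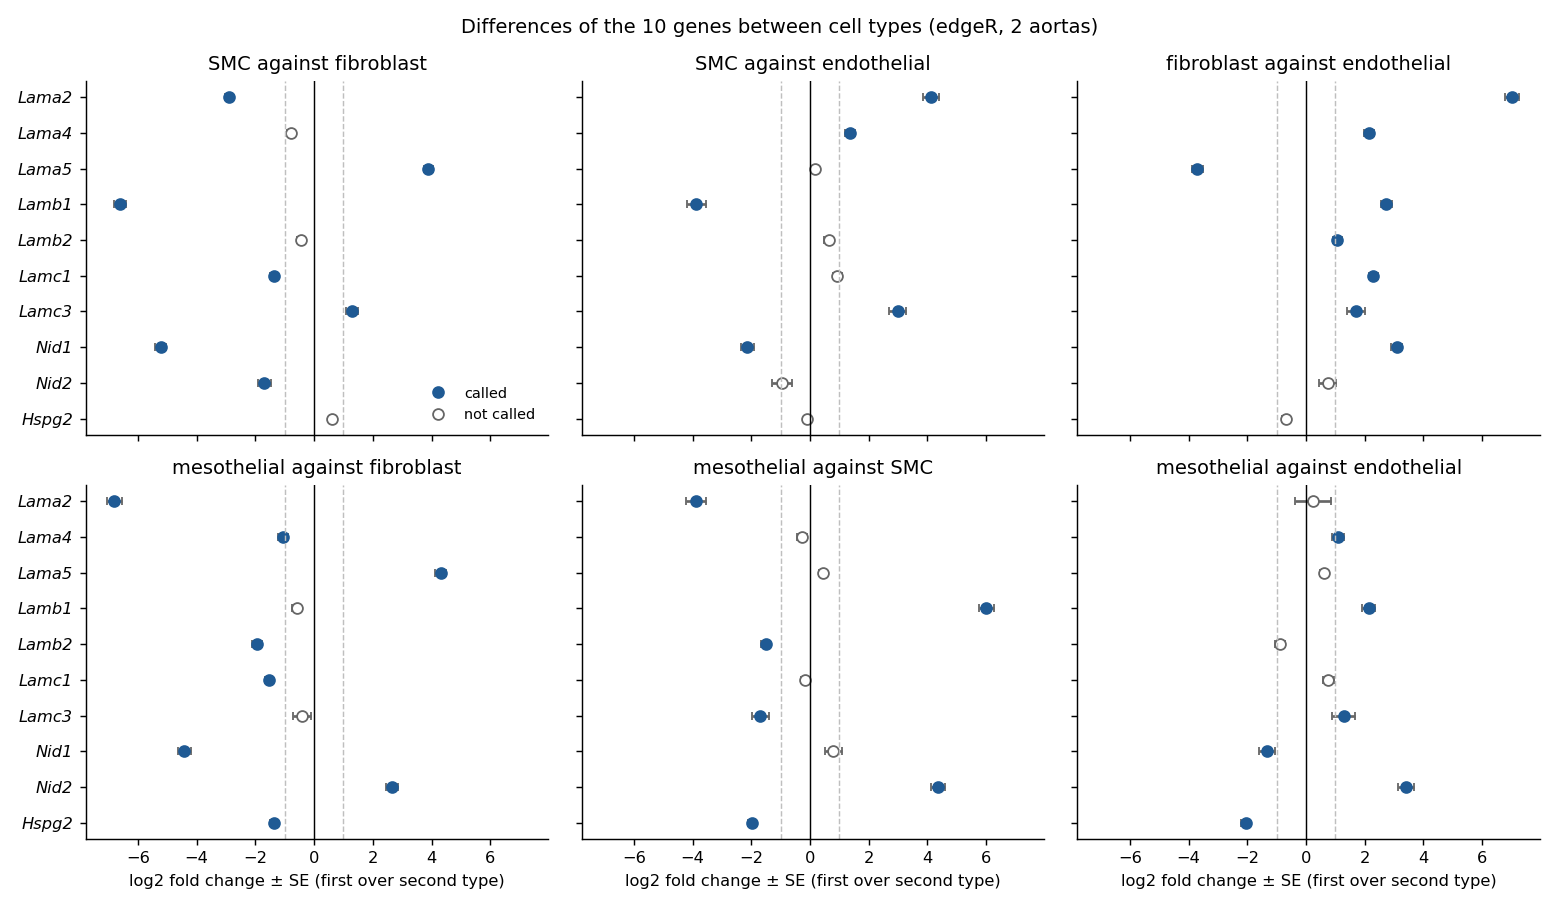
Log2 fold change (x axis, first over second cell type, whiskers are standard errors) of the 10 genes (y axis) in 6 pairs of cell types. Filled points passed the adjusted p and the size limit of 1 shown by dashed lines. Lamb1 and Nid1 lie far to the left in SMCs against fibroblasts (-6.61 and -5.22), and Hspg2 stays within the dashed lines in all 3 pairs of SMCs, fibroblasts and endothelial cells.

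The make-up of each chain class within a cell type needs no scaling between types. In SMCs the α UMIs were divided among Lama4 (44.2% and 46.3%), Lama2 (30.7% and 29.9%) and Lama5 (24.9% and 23.5%). These pooled shares do not hold for each cluster: 53.2% and 56.7% of the Lama2 UMIs of SMCs came from cluster 3, where Lama2 (166 and 141 CPM) exceeded Lama4 (41.3 and 50.5), while clusters 0 and 1 held 23.1 to 30.4 CPM of Lama2 against 108 to 120 of Lama4. In fibroblasts Lama2 made up 77.2% and 70.7% and Lama4 most of the remainder, and in lymphatic endothelial cells Lama4 made up 94.8% and 97.2%. Endothelial cells held mainly Lama5 (46.3% and 47.2%) and Lama4 (39.1% and 38.1%), with 10.1% and 12.1% from Lama3, the α3 chain. The endothelial shares rest on 348 and 231 α UMIs, and the exact 95% binomial interval of the Lama5 share was 40.9% to 51.7% in aorta 1, which overlaps that of Lama4 (33.9% to 44.4%).

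Among β UMIs, Lamb2 made up 99.6% (interval 99.4 to 99.7) and 99.7% (99.5 to 99.9) in SMCs. Its share was 82.3% and 78.6% in fibroblasts, 93.4% and 92.3% in endothelial cells, and 64.6% and 56.0% in mesothelial cells. In lymphatic endothelial cells Lamb1 and Lamb2 were about even (Lamb1 43.1% and 51.4%, on 65 and 74 β UMIs). In SMCs almost all β transcripts were thus of 1 chain.

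Between Lamc1 and Lamc3 UMIs, of these 5 types Lamc3 exceeded Lamc1 in both aortas of SMCs only, where it made up 54.9% (53.4 to 56.4) in aorta 1 and 60.4% (58.7 to 62.1) in aorta 2. It made up 23.3% and 11.9% in fibroblasts, 23.3% and 26.7% in endothelial cells and 26.1% and 39.9% in mesothelial cells. The excess of Lamc3 in SMCs came from cluster 3 (532 and 509 CPM of Lamc3 against 120 and 103 of Lamc1), while cluster 0 held 34.5 and 41.4 CPM of Lamc3 against 104 and 98.5 of Lamc1, and cluster 1 held 15.1 and 28.4 against 115 and 124. In lymphatic endothelial cells all 34 and 39 UMIs were of Lamc1, so the upper bound for Lamc3 was 10.3% and 9.03%. The sum of the chains differed by class as well: SMCs held 208 and 211 CPM of α, 350 and 381 of β and 242 and 264 of Lamc1 and Lamc3, while fibroblasts held 694 and 736 of α, 666 and 683 of β and 368 and 371 of Lamc1 and Lamc3.

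**Figure D3:**
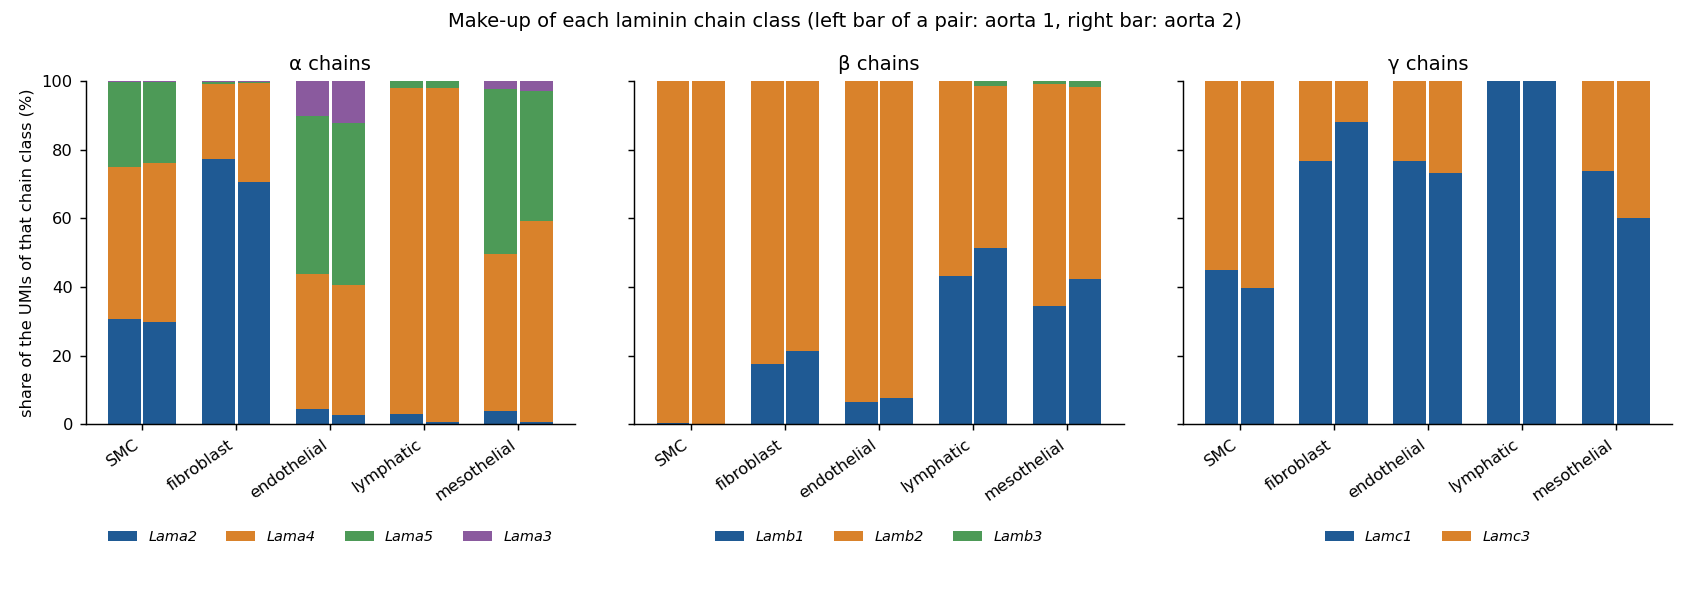
Share of the UMIs of each laminin chain class (y axis, percent) that came from each chain in 5 cell types (x axis), with the left bar of a pair for aorta 1 and the right bar for aorta 2. In SMCs Lamb2 fills over 99% of the β bar and Lamc3, most of it from 1 cluster, over 54% of the γ bar, and Lama2 fills over 70% of the α bar in fibroblasts.

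Which chains a cell type can combine was read with a rule that also considers free RNA, since droplets take up transcripts of other cells. A chain was counted as present in a type if it was called above lymphocytes, reached 10 CPM in both aortas and, in both, lay closer to the level of its highest type than any marker of that highest type did. The type in which a gene was highest was exempt from this last limit. Among the 10 genes this exempted Lama2, Lamb2, Lamc1 and Nid1 in fibroblasts, Lamc3 in SMCs, Hspg2 in endothelial cells and Lama5 in mesothelial cells. It also exempted Lama4, Lamb1 and Nid2 in lymphatic endothelial cells. The share of all genes that pass the full rule was not computed. Under this rule SMCs held 5 of the 10 genes (Lama4, Lama5, Lamb2, Lamc3 and Hspg2), fibroblasts 9 (all but Lama5), endothelial cells 6, lymphatic endothelial cells 6, mesothelial cells 5, and myeloid and erythroid cells 0.

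The comparisons with lymphocytes called many genes of any kind. Against lymphocytes, the background called was 44.9% in SMCs (27.0% higher in SMCs, 17.9% higher in lymphocytes), 45.2% in fibroblasts (26.9% and 18.2%) and 38.4% in endothelial cells (22.6% and 15.9%). It was 26.2% in lymphatic endothelial cells (14.6% and 11.6%), 40.6% in mesothelial cells (24.4% and 16.3%), 28.1% in myeloid cells (16.8% and 11.3%) and 6.40% in erythroid cells (2.58% and 3.82%). A call above lymphocytes was thus common among genes at large, and the members' counts are read with the other limits.

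The limit by the highest marker is strict. For fibroblast genes in SMCs it was set by Mfap5, at 0.433 and 0.371 of its fibroblast level, whereas the median ratio over the 9 fibroblast markers was 0.0327 and 0.0260. Lamc1 in SMCs stood at 0.386 and 0.321 of its fibroblast level and Lama2 at 0.119 and 0.121, so both missed the strict limit and lay above the median ratio. For Hspg2 the limit could not be met in lymphatic endothelial and mesothelial cells, because the endothelial marker Kdr was above its endothelial level there (8.36 and 11.2 times, and 6.63 and 5.92 times). In lymphatic endothelial cells, which share endothelial markers, the median limit was also high (0.601 and 0.676 of the endothelial level), so that Hspg2, at 186 and 213 CPM and above lymphocytes by 2.93 (SE 0.263, adjusted p = 1.29e-09), was not counted under either limit. With the median as the limit, SMCs held 7 of the 10 genes. Nid1 and Lamb1 were not counted in SMCs under either limit, nor with no limit at all, because neither was called above lymphocytes (log2 fold changes 0.25 and -0.95).

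Every combination of 1 α, 1 β and 1 γ chain present in a type was then listed, with no evidence in these data that any is assembled. By the strict limit SMCs could form 423 and 523, and by the median limit also 221, 223, 421 and 521, so that each combination contained β2. Without SMC cluster 3 the strict limit also counted Lamc1 in SMCs, which adds 421 and 521, so the list with γ3 alone depends on that cluster. The chains were pooled over the clusters of a type, and the clusters did not hold them evenly: in SMC cluster 3, where Lamc3 was concentrated, Lama4 (41.3 and 50.5 CPM) and Lama5 (29.4 and 28.8) were lower than in clusters 0 and 1, which held 15.1 to 41.4 CPM of Lamc3. In fibroblasts Lamc3 was concentrated in cluster 5, while Lama4 and Lamb1 were highest in cluster 12, with 5.48 and 2.02 CPM of Lamc3. Fibroblasts could form 8 under both limits, 211, 213, 221, 223, 411, 413, 421 and 423, none of which contained α5. Endothelial cells could form 411, 421, 511 and 521, and with the low α3 chain 311 and 321. Lama3 was no longer counted there with doublets kept, with cells of 5000 to 25000 UMIs or with a minimum of 20 CPM, and Lamb1 was not with that minimum. Lymphatic endothelial cells could form 411 and 421. Mesothelial cells went from 2 combinations (413 and 513) to 8 with the median limit, and there the strict limit for fibroblast genes was set by Dcn at 0.327 and 0.411 of its fibroblast level.

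**Figure D4:**
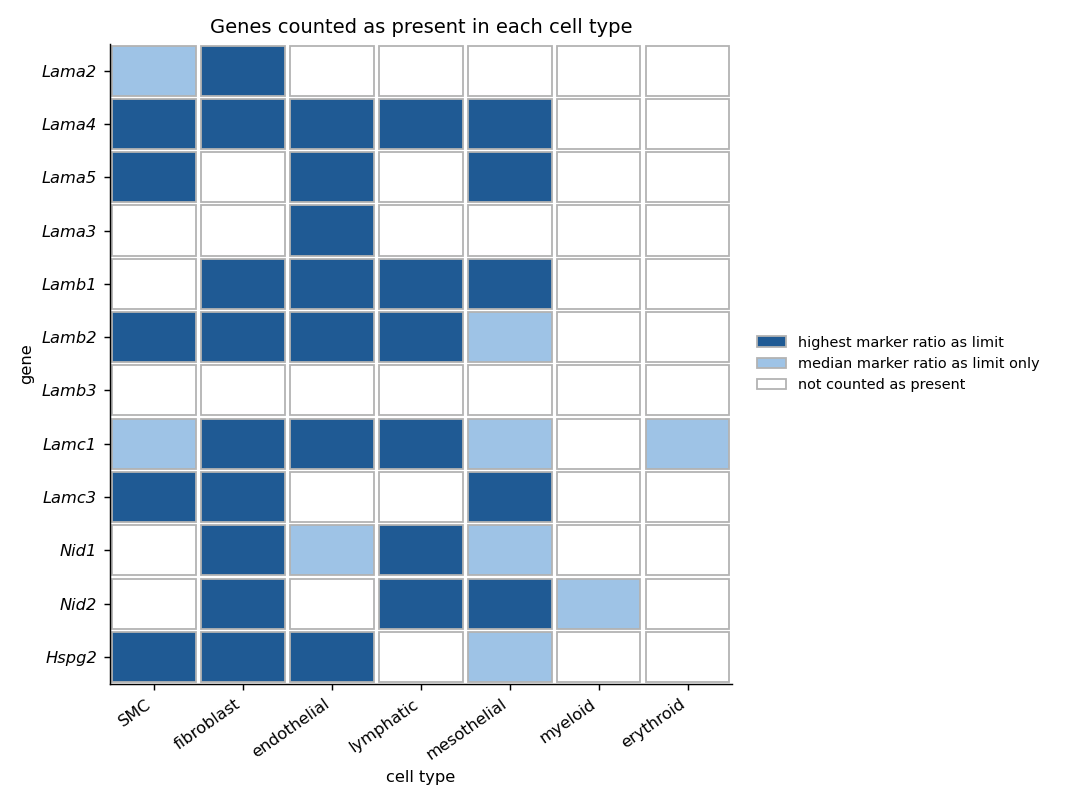
Genes (y axis) counted as present in 7 cell types (x axis). Dark squares passed with the highest marker ratio as the limit for free RNA, light squares passed only with the median ratio, and white squares did not pass (Hspg2 in lymphatic endothelial cells is white because both limits are set by markers which that type shares). The limit for free RNA was not applied to the type in which a gene was highest. Lamb1 and Nid1 are white in SMCs, and Lama2 and Lamc1 are light there.

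SMCs were not uniform in these genes. The 5 SMC clusters were made without the 10 genes, and their levels are a description with no test. Cluster 3 (464 and 410 cells, 19.8% and 24.3% of SMCs), led by Rgs5, Lrrtm3, Lamc3 itself and Mia, held 532 and 509 CPM of Lamc3, against 6.11 to 136 and 24.1 to 137 CPM in the other 4 clusters of the respective aorta. Its 10 leading genes also included Dlx6, Dlx5 and Prrx2. It supplied 81.5% and 80.7% of the Lamc3 UMIs of SMCs. Outside it SMCs held 30.8 and 41.2 CPM, between the level of all fibroblasts (85.8 and 44.3 CPM) and that of fibroblasts outside their own cluster with most Lamc3 (13.3 and 9.44 CPM).

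The same cluster held more Lama2 (166 and 141 CPM) and less Lama4 (41.3 and 50.5) and Lama5 (29.4 and 28.8) than clusters 0 and 1, which made up 30.7% and 34.4% (cluster 0) and 24.0% and 19.9% (cluster 1) of SMCs and held 23.1 to 30.4 CPM of Lama2, 108 to 120 of Lama4 and 56.5 to 62.0 of Lama5. Hspg2 was at its highest there (346 and 342 CPM), and Lamc1 was alike in clusters 0, 1 and 3 (98.5 to 124 CPM). Some markers of pericytes moved with this pattern: the 6 genes of that list summed to 3431 and 2846 CPM in cluster 3 and to 458 to 895 CPM in the other SMC clusters. Most of that sum was Rgs5 (2891 and 2359 CPM) with Kcnj8 (229 and 195) and Abcc9 (246 and 211), the 3 of the 6 that were higher there than in the other SMC clusters. Rgs4 was lower there (62.6 and 79.9 CPM) than in clusters 0 (102 and 109) and 1 (96.9 and 127), Ndufa4l2 stood at 1.98 and 0.655 CPM, against 92.7 and 19.0 in cluster 13, and Higd1b stood at 0.849 and 0 CPM. Fibroblast markers summed to 3658 and 3723 CPM there, against 1365 to 1617 CPM in clusters 0, 1 and 6. The 9 SMC markers summed to 27491 and 29721 CPM there, against 49918 to 54751 CPM in clusters 0 and 1, and the part of cells with these markers in the pattern was not tested.

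Cluster 13 (150 and 91 cells), led by Tnfrsf11b and Vwc2, was the other SMC cluster with Lama2 (206 and 186 CPM) and Lamc3 (136 and 137 CPM). Nid1 and Lamb1 had their highest SMC levels there, with 88.1 and 94.9 CPM of Nid1 and 18.3 and 11.4 CPM of Lamb1, against 6.88 to 15.5 CPM and at most 1.72 CPM in the other 4 clusters. As a small cluster it supplied 29.6% and 31.3% of the Nid1 UMIs of SMCs, and 16 of 24 and 6 of 11 Lamb1 UMIs. Fibroblast markers moved with this: the 9 genes of that list summed to 10365 and 8657 CPM in cluster 13, to 3658 and 3723 CPM in cluster 3 and to 1365 to 1617 CPM in the other 3 SMC clusters, and their part in the result was not tested. Cluster 6 had the lowest depth, with a median of 1784 and 1720 UMIs, and the counts of called genes were the same without it.

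Fibroblasts were also divided. Cluster 5, led by Dio2, Mmp3 and Lum, held 221 and 141 CPM of Lamc3 and supplied 89.9% and 84.3% of the Lamc3 UMIs of fibroblasts, and it held the most Lama2 (717 and 740 CPM). The 9 SMC markers summed to 1467 and 1282 CPM in cluster 5, against 475 to 898 CPM in clusters 7, 8 and 12. The pericyte list summed there to 730 and 817 CPM, against 76.7 to 721 CPM in clusters 7, 8 and 12, and 1 of its genes, Ndufa4l2 (195 and 212 CPM), was among the 10 leading genes of the cluster. Among fibroblast clusters, SMC markers were highest in cluster 17 (103 and 55 cells, 8783 and 15849 CPM), which held 55.8 and 52.4 CPM of Lamc3, and the part of these markers in the results was not tested. Cluster 12, led by Pla1a, Cd55 and Pi16, held 2.02 to 5.48 CPM of Lamc3 but the most Nid1 (1345 and 1244 CPM), Lamc1 (546 and 565), Lama4 (372 and 432) and Lamb1 (302 and 333). Its Lamb2 level (308 and 296 CPM) was below the 545 to 819 CPM of clusters 5, 7 and 8. Cluster 5 made up 33.5% of fibroblasts in aorta 1 and 28.0% in aorta 2, and cluster 12 made up 11.4% and 18.9%. The Lamc3 level of all fibroblasts was higher in aorta 1, and those of Nid1, Lama4, Lamb1 and Lamc1 were higher in aorta 2.

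**Figure D5:**
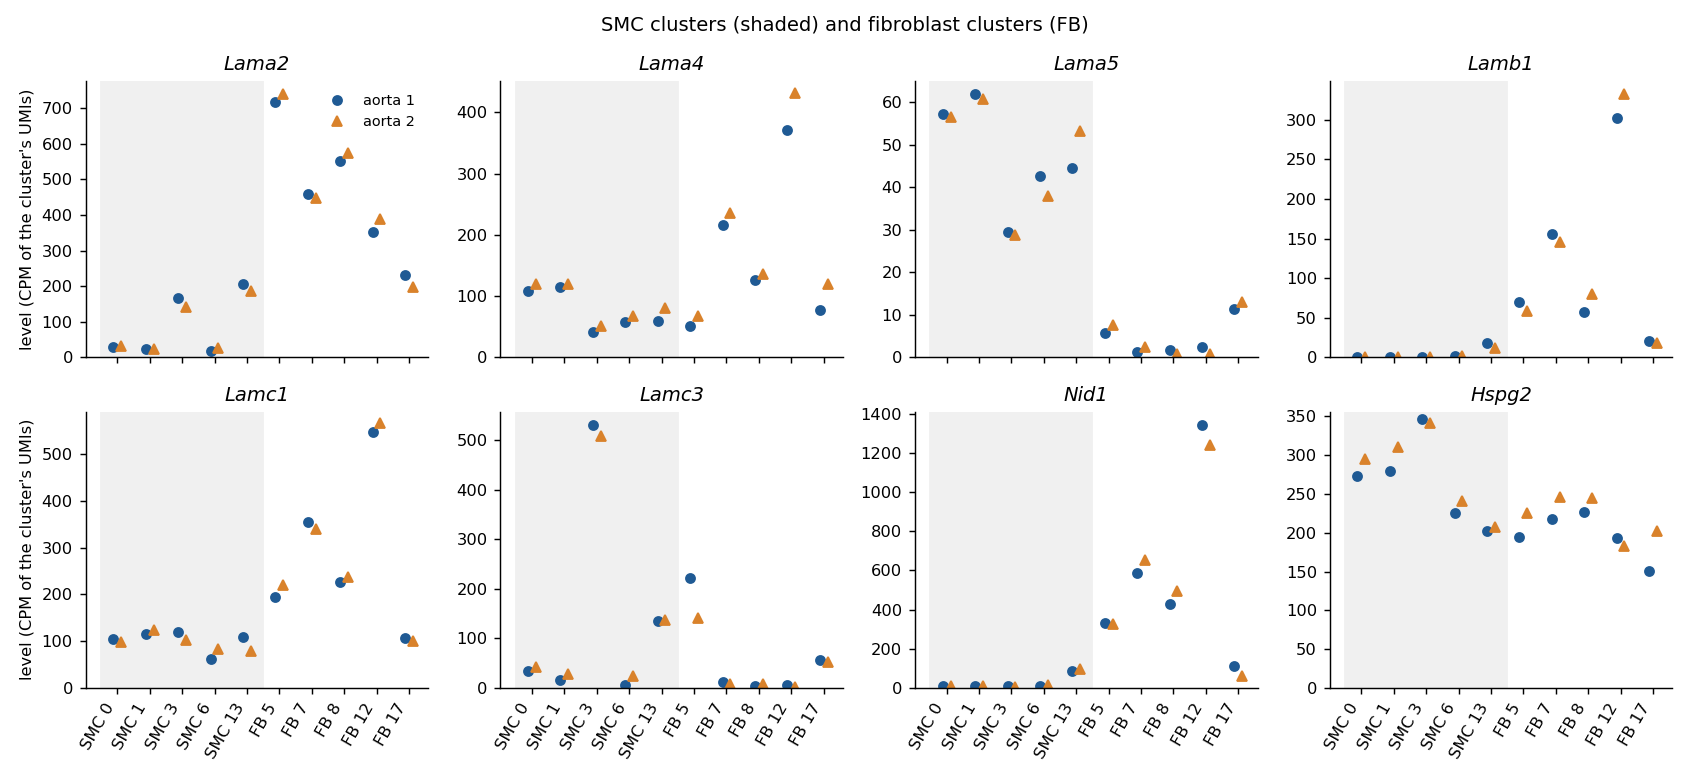
Level of 8 genes (y axis, CPM, linear scale from 0) in the 5 SMC clusters (shaded) and the 5 fibroblast clusters (x axis), with a circle for aorta 1 and a triangle for aorta 2. Lamc3 is concentrated in SMC cluster 3 and, in fibroblasts, in cluster 5, and Nid1, Lamb1, Lamc1 and Lama4 are highest in fibroblast cluster 12.

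Endothelial cells formed 3 clusters. Clusters 2 and 11 held most of them, and their Lamc3 was mostly in cluster 2 (28.8 and 31.8 CPM, against 3.34 and 4.67 in cluster 11). Cluster 11, led by Adra2a, Stmn2 and Gkn3, held more Lama5 (76.8 and 59.2 CPM) than cluster 2 (41.9 and 45.0). The small cluster 21 (41 and 48 cells), led by Gpihbp1, Fabp4 and Rbp7, held more Lama4 (177 and 156 CPM), Lamb1 (78.6 and 78.2) and Nid1 (138 and 205) than the other 2 clusters, with no Lamc3 UMI in either aorta.

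The other basement membrane genes and the laminin receptors set the members in context. Of 21 other basement membrane genes, 4 were higher in SMCs than in fibroblasts, 10 were higher in fibroblasts and 7 were not called (background 11.0% and 12.4%), with a median log2 fold change of -0.36. The largest differences on the SMC side were Tinagl1 (log2 fold change 5.45), Npnt, which encodes the integrin ligand nephronectin (5.34, at 731 and 764 CPM in SMCs and 20.7 and 19.9 in fibroblasts), and Col18a1, the collagen XVIII gene (4.53). On the fibroblast side they were Fbln2, the fibulin-2 gene (-6.06, at 15 and 15.7 CPM in SMCs and 1022 and 1242 in fibroblasts), Smoc2 (-6.02) and Egflam (-5.96). Against endothelial cells, 10 of the 21 were higher in SMCs and 7 lower (background 14.6% and 12.5%). The main collagen IV genes Col4a1 (948 and 866 CPM in SMCs, 686 and 635 in fibroblasts) and Col4a2 (558 and 512 against 337 and 329) were not called. Of 12 laminin receptors, 6 were higher in SMCs and 3 in fibroblasts (background 11.0% and 12.4%), and the median fold change was 1.31. The SMC side was led by Mcam, a receptor for laminins with the α4 chain (5.26, at 262 and 257 CPM in SMCs and 6.33 and 8.95 in fibroblasts), Itga7, the α7 integrin of muscle (5.15, at 72.6 and 74.3 against 2.11 and 2.47 CPM), and Itga3 (4.35). The 3 on the fibroblast side were Sdc1 (-1.33), Sdc2 (-1.05) and Adgrg6 (-1.86), the last on at most 15 UMIs in any of the 4 sums. Against endothelial cells, 3 of the 12 were higher in SMCs and 4 lower (background 14.6% and 12.5%). Bcam, a receptor for laminin α5, stood at 355 and 335 CPM in SMCs, 416 and 382 in endothelial cells and 1094 and 943 in mesothelial cells, against 23.1 and 14.7 in fibroblasts.

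Over the 16 sums of cell type and aorta, the genes most like each member were found by the Pearson correlation of log2 CPM among 13974 genes. The sums share cell types and libraries, and the values are a description. Hspg2 was most like Tcf7l1 (0.99) and Col4a1 (0.98), Lama4 was most like Pxdn (0.98), which encodes the peroxidase that crosslinks collagen IV, and Lama5 was most like Bcam (0.89). The nearest gene was Qpct for Lama2 (0.95), Fndc1 for Lamb1 (0.97), Ltbp3 for Lamb2 (0.93), Nbl1 for Lamc1 (0.93), Gnao1 for Lamc3 (0.95), Akap12 for Nid1 (0.94) and Pde7b for Nid2 (0.95).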

How the data were processed

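Single cells of 2 thoracic aortas were profiled with 3′ droplet libraries (Chromium v3.1), and the deposited values are raw UMI counts per gene and cell, which the authors made with Cell Ranger 4.0.0 against mm10 with reporter sequences added. Per the labels, Seurat 4.0 was used afterwards, and filtering left 6278 and 4300 cells. The filter here (more than 200 genes, 1000 to 25000 UMIs, mitochondrial share under 10%) left 6744 and 4698, and the limits that the study gives for GFP-sorted SMCs would leave 1916 and 1295. Scrublet then removed 211 and 97 doublets. Cells were clustered in scanpy 1.11.5 (2000 variable genes, 30 components, 15 neighbours, Leiden resolution 1) without the members, the gene lists, integrins, reporters and mitochondrial genes. Clusters were named from marker lists by a rule set after cluster tables had been seen, and the names can differ from those of the study. The members and lists were chosen with earlier results of these data known. Counts were summed per aorta and type and fitted in edgeR 4.0.16 (R 4.3.3; TMM, filterByExpr, cell type as the only term), with DESeq2 1.42.0 as an alternative. The sums held from 96187 to 17343941 UMIs. All members, 3 further laminin chains, and at most 3 genes a direction of each list were named by rule. Col4a1, Col4a2, Bcam and cluster markers were named after their values were seen. Deviations from the type means correlated between types of the same aorta by -0.02 to 0.11 over 28 pairs of types. Types of 1 aorta come from the same animal, so a fit with the aorta as a replicate block was also made. Fits were tested on simulated counts. An item of the gene list is not reported here, and the sums and shares of chains leave it out.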

Additional observations from a re-analysis of the deposited data

How the results depend on the processing

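The numbers of the 10 genes called were recomputed under 11 alternatives in 6 comparisons and stayed within 1.5 times the reported number, the lowest being 4 in place of 6 for mesothelial against endothelial cells with doublets kept. With the aorta as a replicate block the numbers were 7, 5, 8, 8, 6 and 6, the same as without it, and the 32 pairs of gene and type counted as present were the same. Of 780 recomputed fold changes of single genes, 751 kept their direction and side of the threshold, and 10 changed sign. These were Lama5 in SMCs against endothelial cells (-0.0074 with RLE, -0.0071 with DESeq2), Lamc1 in mesothelial cells against SMCs (0.090 with RLE, 0.092 with DESeq2), Lama4 in the same pair (0.0040 with DESeq2), Lamc3 in mesothelial cells against fibroblasts (0.64 without aorta 1) and Lama2 in mesothelial against endothelial cells (-1.40 without aorta 1, -0.59 with cells of 5000 to 25000 UMIs). Without aorta 2, these Lamc3 and Lama2 values kept their sign, at -1.20 and 0.42. Without the Rgs5-led SMC cluster, Lamc3 changed sign in SMCs against fibroblasts (-0.68) and in mesothelial cells against SMCs (0.28). These 2 had been called and the other 8 had not, and the cause was not tested. With doublets kept, Lama4 (0.92) and Lamc3 (0.94) in mesothelial against endothelial cells were no longer called. DESeq2 did not call Lamc3 in 3 comparisons: SMCs against fibroblasts, mesothelial cells against SMCs and mesothelial against endothelial cells. Without a change of sign, a call was lost in 6 and gained in 7, 3 with RLE, 3 with DESeq2 and 1 with Leiden resolution 0.5. Nid2 in SMCs against endothelial cells (to -1.15) and Nid1 in mesothelial cells against SMCs (to 1.13), not called in the main fit, passed the size limit under some alternatives. The number of pairs of gene and type counted as present was 32, against 42 with no limit for free RNA, 41 with the median limit, 33 and 29 with minimums of 5 and 20 CPM, 31 with doublets kept, and 32 with cells of 5000 to 25000 UMIs, 30 of them shared, and 33 without the Rgs5-led SMC cluster, the added one being Lamc1 in SMCs. The median limit and the fits without the low-depth or the Rgs5-led SMC cluster were chosen after seeing the data. With 1 aorta left out, fold changes have no test. Without aorta 1, Lama2 in mesothelial cells stood at -9.05 against fibroblasts and -6.12 against SMCs, on 1 UMI. Lymphatic endothelial and erythroid cells were few, so levels under 18.0 and 31.2 CPM there rest on at most 3 counts in 1 aorta.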

Other observations

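Other laminin chains gave low values outside the comparisons above. Lamb3, the β3 chain of epithelial laminin, was found mainly in lymphocytes, at 26.9 and 27.3 CPM and with 83.3% and 78.7% of its UMIs in named cells, against at most 4.08 CPM in every other type. Within lymphocytes it was highest in cluster 14, led by Igkc and Cd79a (46.7 and 44.9 CPM), and it was also found in cluster 9, led by Ms4a4b and Nkg7 (26.6 and 27.8 CPM). Other genes overlap Lamb3, 4930570N18Rik on the same strand and Hsd11b1, G0s2 and Gm37650 on the opposite strand, so its counts are uncertain. No lymphocyte held a UMI of Lama3, the α3 chain, which allows up to 1.0 and 1.7 CPM. Lama1, the α1 chain, had 0 UMIs in all analysed cells of both aortas, which allows up to 0.073 and 0.11 CPM.

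In myeloid cells Nid2 was the 1 member of 10 called above lymphocytes (log2 fold change 3.10, SE 0.361, adjusted p = 8.80e-08, edgeR's quasi-likelihood test), where 16.8% of the background genes were higher in myeloid cells. It was not counted as present there by the highest marker ratio. Cluster 4, led by Mrc1, F13a1 and Folr2, genes of resident macrophages, held 38.1 and 50.8 CPM of Nid2. Clusters 15, 19, 20, 22 and 23 held at most 5.30 CPM, and the small cluster 24 held 41.3 and 0 CPM. The Nid2 level of myeloid cells was 0.237 and 0.293 of that of lymphatic endothelial cells. The same ratio was 0.270 and 0.293 for Lyve1, which is also a known macrophage gene, and the median over the 6 lymphatic endothelial markers was 0.00041 and 0.00073.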
